A study of Mus musculus with 24 samples.

Results

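Mammary basal cells that carried the mark of a PIK3CA H1047R transgene were set against the bulk of the basal cells of control glands. The comparison took 6 of the 24 arrays of the study, 3 arrays of mutant basal GFP-positive cells and 3 of control basal GFP-negative cells, chosen by their labels alone, and every gene that had a probe set with 1 symbol, 19937 genes in all. The mutant mice carried Lgr5-creERT2, a tamoxifen-dependent Cre recombinase driven from the Lgr5 locus, together with the PIK3CA H1047R transgene, and the control mice carried Lgr5-creERT2 without it. Mice of both groups were of a mixed FVB/C57BL6 background and had received tamoxifen 4 weeks earlier. Each array holds RNA amplified from 250 sorted cells of a pool of 2 to 3 estrus-synchronised mice, from 3 independent sortings. The labels call the tissue preneoplastic mammary gland for mutant and control alike.

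Basal cells were sorted as CD45-negative, CD24-low and Sca1-negative. GFP marks expression of Lgr5, of the transgene or of both in mutant glands and can mark Lgr5 alone in control glands, where the labels describe the GFP-negative basal cells as lacking Lgr5 expression. The compared groups therefore differ in genotype and in GFP state, which cannot be told apart within these 6 arrays. The mutant basal GFP-negative and control basal GFP-positive arrays, 3 each, were used to divide each gene's difference into 2 parts that add up to it exactly. The genotype part is the mutant minus control difference averaged over both GFP states, and the GFP part is the GFP-positive minus GFP-negative difference averaged over both genotypes. All values are deposited log2 levels, so a difference of 1 is a 2-fold change, and levels of different genes were not compared. In these bulk samples, fewer cells of a type and less RNA per cell cannot be told apart.

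The product of PIK3CA is p110-alpha, a catalytic subunit of phosphoinositide 3-kinase (PI3K), which signals from growth factor receptors to the kinase AKT, and H1047R is an activating change found in breast cancers. The mammary epithelium has an outer basal layer of contractile myoepithelial cells and an inner luminal layer, whose alveolar cells make milk proteins and fat in pregnancy and lactation, while hormone-sensing luminal cells carry the receptors for estrogen and progesterone. Lgr5, a receptor for R-spondins that strengthens Wnt signalling, is found in a part of the basal layer.

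The sort was checked first. The basal keratin Krt5 had levels of 11.93, 11.84 and 11.99 on the mutant GFP-positive arrays and 11.84, 11.61 and 11.57 on the control GFP-negative arrays, and Krt14 had 11.36, 11.49 and 11.28 on the mutant arrays and 11.43, 11.28 and 11.43 on the control arrays. Control luminal cells stood at group means of 5.21 and 5.31 for Krt5, so both compared groups carried the basal keratins at levels far above luminal cells. The differences were 0.25 (SE 0.43, adjusted p = 0.822) for Krt5 and -0.0022 for Krt14 (SE 0.42, adjusted p = 0.998). These standard errors are pooled over all 8 groups and exceed the range of the 3 arrays within either compared group. The test therefore says little about small differences in these 2 keratins. The sign of the Krt14 difference turned with the scaling of the arrays. Trp63, the transcription factor of basal epithelium, did not pass the test (-0.24, adjusted p = 0.809). The luminal keratins Krt8 (0.40, adjusted p = 0.36) and Krt18 (0.40, adjusted p = 0.604) did not pass either, and Krt8 averaged 10.998 ± 0.37 in mutant and 10.60 ± 0.36 in control cells, against 12.56 and 12.67 in the control luminal groups. The gene for Sca1, Ly6a, was without a probe set of a single symbol and was not analysed here.

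Pik3ca, the endogenous counterpart of the transgene, had levels of 7.94, 7.84 and 8.42 on the mutant GFP-positive arrays and 7.93, 7.55 and 7.57 on the control GFP-negative arrays. The lowest mutant array, 7.84, lay below the highest control array, 7.93, so the groups overlapped, and the difference of 0.38 (SE 0.21, adjusted p = 0.394) did not pass the test. The labels do not say whether the mouse probe set also reads the transgene.

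Lgr5 itself was lower in the GFP-positive mutant cells. It had levels of 7.29, 6.08 and 5.53 on the mutant GFP-positive arrays and 8.83, 8.34 and 7.04 on the control GFP-negative arrays. Mutant replicate 1 was higher than control replicate 3, so the groups overlapped, and the difference was -1.77 (SE 0.39, adjusted p = 0.0157). Control basal GFP-positive cells had the highest Lgr5 level, 9.47 ± 0.46, followed by control basal GFP-negative cells with 8.07 ± 0.92, mutant basal GFP-negative cells with 7.34 ± 0.19 and mutant basal GFP-positive cells with 6.30 ± 0.90 (SD, n = 3 each). The control GFP-negative fraction, labelled as without Lgr5-expressing cells, thus stood well above the luminal group means of 4.36 to 5.06. The Lgr5 call ended in 4 of the 6 fits that left out 1 array, with an adjusted p of 0.087 and a difference of -1.38 without mutant replicate 3. It also ended with the 4 basal groups only and with the 2 compared groups only (adjusted p up to 0.301).

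Across all genes, 456 were higher in mutant basal GFP-positive cells, 2.29% of those tested, and 185 were lower, 0.928%, at a Benjamini-Hochberg adjusted p under 0.05 in limma. The difference was 2-fold or more in 320 of the higher and 95 of the lower genes. The arrays of the groups were fully separated for 451 of the higher and 183 of the lower genes, and over all genes tested for 8.90% with the mutant arrays higher and 14.9% with them lower, called or not. The median difference of all genes was -0.06, and 67 of the higher and 57 of the lower genes were dim, with a mean level below 4.66, the median of the gene means. The count of lower genes depended on single mutant arrays: it was 98, 95 and 103 without mutant replicate 1, 2 or 3, and the total of 641 calls was 409 without replicate 1 and 413 without replicate 2. Correlations across genes were 0.975 to 0.979 among the mutant arrays, 0.954 to 0.959 among the control arrays and 0.937 to 0.953 between arrays of different groups.

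**Figure D1:**
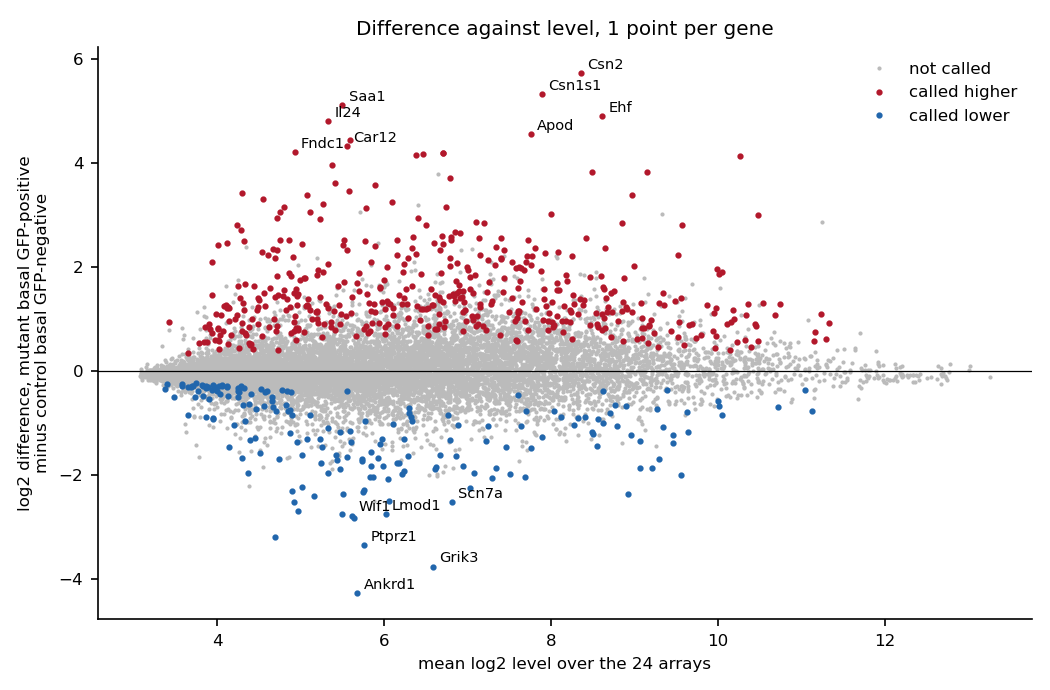
Log2 difference of mutant basal GFP-positive minus control basal GFP-negative cells (vertical axis) against the mean log2 level over the 24 arrays (horizontal axis), 1 point per gene. Red points are the 456 genes called higher and blue points the 185 called lower. The largest positive difference, 5.73 for Csn2, exceeds in size the largest negative one, -4.26 for Ankrd1.

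Milk protein genes held the largest differences. Csn2, which encodes beta-casein, had levels of 12.28, 10.17 and 10.70 on the mutant GFP-positive arrays and 5.53, 5.24 and 5.18 on the control GFP-negative arrays. All mutant arrays lay far above all control arrays, with mutant replicate 1 the highest, and the difference was 5.73 (SE 0.62, adjusted p = 1.77e-05). Csn1s1, for an alpha-casein, had 10.87, 9.21 and 9.23 on the mutant arrays and 4.22, 4.84 and 4.29 on the control arrays, again without overlap, a difference of 5.32 (SE 0.66, adjusted p = 7.54e-05). Its control mean of 4.45 is dim, so that size is approximate.

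Wfdc18, of the whey acidic protein family, had 12.04, 12.08 and 11.26 on the mutant arrays and 5.49, 7.92 and 9.57 on the control arrays. Its mutant arrays lay within a narrow band while the control arrays spread over 4 log2 units, and the difference was 4.14 (SE 0.79, adjusted p = 0.00521). Csn3, for kappa-casein, had 10.99, 10.93 and 11.01 on the mutant arrays and 8.04, 8.89 and 9.27 on the control arrays, a separated pair of groups with a difference of 2.24 (SE 0.51, adjusted p = 0.0189); its call ended in 4 of the 6 fits that left out 1 array, with an adjusted p of 0.0739 without control replicate 1. The Wfdc18 call held in all 6 of these fits and ended in the fits of the 4 basal groups only and of the 2 compared groups only (adjusted p up to 0.163). That of Csn3 also ended with the 4 basal groups only (adjusted p = 0.187).

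These 4 were the called members among the 9 measured caseins and whey proteins, whose median difference was 3.19. Over all genes 2.29% were called higher and 0.928% lower, the shares to set beside this and each later list count. Wap, the whey acidic protein, had 9.79, 7.22 and 6.32 on the mutant arrays and 4.48, 4.60 and 4.68 on the control arrays, and Csn1s2a had 10.13, 5.22 and 9.60 on the mutant arrays and 5.13, 4.03 and 4.39 on the control arrays. In both genes the mutant arrays lay above the control arrays but spread widely, and neither passed the test (Wap 3.19, adjusted p = 0.0981, Csn1s2a 3.80, adjusted p = 0.0718). Csn1s2b, Muc1 and Glycam1 had differences of -0.06 to 0.03. Beside its mean of 11.05 ± 1.10 in mutant basal GFP-positive cells, Csn2 had means of 9.07 in control luminal Sca1-negative and 5.60 in control luminal Sca1-positive cells.

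The promoters of the caseins with the largest differences are shown because milk protein genes are known to be activated by STAT5, a transcription factor of the STAT family that acts downstream of the prolactin receptor. The windows run from 250 bases before to 50 bases after the annotated start in RefSeq GRCm38.p6, at chr5:87665958-87666257 on the plus strand for Csn1s1 and chr5:87699376-87699675 on the minus strand for Csn2. Capitals mark the match to the palindromic STAT motif TTCNNNGAA, 100 bases before the start in Csn1s1 and 93 in Csn2.
Csn1s1: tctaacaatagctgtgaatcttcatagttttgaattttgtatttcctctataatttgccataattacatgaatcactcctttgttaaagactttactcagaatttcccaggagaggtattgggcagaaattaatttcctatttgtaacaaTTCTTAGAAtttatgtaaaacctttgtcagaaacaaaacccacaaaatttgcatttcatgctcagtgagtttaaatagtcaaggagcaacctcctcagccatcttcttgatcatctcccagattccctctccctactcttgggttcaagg
Csn2: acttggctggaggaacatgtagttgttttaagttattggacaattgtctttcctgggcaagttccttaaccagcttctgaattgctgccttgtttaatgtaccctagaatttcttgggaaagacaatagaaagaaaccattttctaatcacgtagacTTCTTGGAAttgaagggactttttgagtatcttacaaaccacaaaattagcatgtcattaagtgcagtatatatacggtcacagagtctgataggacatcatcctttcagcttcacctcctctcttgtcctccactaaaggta
Both strands were searched, and the same motif occurred in 8.30% of the 32851 promoter windows of 300 bases in that annotation. A match describes the letters of the window and was not tied to the expression values. Csn3 had no entry.

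Genes for milk fat secretion moved in part. Xdh, which encodes xanthine oxidoreductase, a protein of the milk fat globule coat, had 8.03, 8.13 and 7.51 on the mutant arrays and 4.68, 4.61 and 4.98 on the control arrays. The groups were separated by more than 2 log2 units and the difference was 3.13 (SE 0.34, adjusted p = 1.78e-05). Mfge8, another protein of the milk fat globule, had 11.43, 11.43 and 11.28 on the mutant arrays and 9.71, 9.95 and 8.87 on the control arrays, also separated, with 1.87 (SE 0.38, adjusted p = 0.00779), a call that ended with the 2 compared groups only (adjusted p = 0.0516). Of the 14 genes measured, these 2 were higher and 0 lower, with a median difference of 0.27. Plin2, the coat protein of lipid droplets, had a difference of 1.76 (adjusted p = 0.0717) and Btn1a1, for butyrophilin, 0.35 (adjusted p = 0.623).

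Genes listed as regulators or markers of alveolar and luminal progenitor cells followed, with 5 of 21 higher, 0 lower and a median difference of 0.24. Ehf, an epithelial ETS transcription factor, had 10.26, 9.90 and 9.82 on the mutant arrays and 4.53, 5.92 and 4.83 on the control arrays. The mutant arrays were closely grouped and far above every control array, and the difference was 4.90 (SE 0.30, adjusted p = 8.23e-09). Elf5, the ETS factor that drives alveolar differentiation, had 6.85, 6.11 and 9.12 on the mutant arrays and 4.12, 4.03 and 4.14 on the control arrays. All mutant arrays lay above the dim control arrays, with mutant replicate 3 the highest, and the difference of 3.26 (SE 0.77, adjusted p = 0.0229) was lost in 4 of the 6 fits that left out 1 array (2.38, adjusted p = 0.114 without mutant replicate 3).

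Lif, for the cytokine leukemia inhibitory factor, had 8.79, 9.71 and 7.88 on the mutant arrays and 4.45, 5.14 and 5.28 on the control arrays and a difference of 3.84 (SE 0.55, adjusted p = 0.000352). Tspan8, a tetraspanin of the cell surface, rose by 2.57 (SE 0.48, adjusted p = 0.00396), and Id2, an inhibitor of helix-loop-helix factors needed for alveolar growth in mice, by 1.58 (SE 0.33, adjusted p = 0.0103). The arrays of each of these 3 genes were separated. Tspan8 averaged 9.72 in control basal GFP-positive cells and 7.86 in control basal GFP-negative cells. Its means in control luminal Sca1-negative and Sca1-positive cells were 9.05 and 5.58, and it falls among the basal-high genes described below. The Id2 call ended without control replicate 3 (adjusted p = 0.054). Stat5a had a difference of -0.58 (adjusted p = 0.2), Gata3, a luminal transcription factor, 1.12 (adjusted p = 0.145), and Kit, a receptor of luminal progenitors, 0.14 (adjusted p = 0.891).

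Hormone-sensing luminal genes did not pass the test in limma, with 0 of 11 called and 0 at an unadjusted p under 0.05, and a median difference of -0.06. Esr1, the estrogen receptor, had 5.01, 4.82 and 4.92 on the mutant arrays and 4.82, 4.84 and 4.95 on the control arrays, with overlapping groups and a difference of 0.05 (adjusted p = 0.96). Pgr, the progesterone receptor, had 6.24, 4.95 and 5.35 on the mutant arrays and 5.77, 6.62 and 5.31 on the control arrays, also overlapping (-0.39, adjusted p = 0.784). The largest value of the list was that of Cited1, a transcriptional co-regulator, 1.03 (adjusted p = 0.335).

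Among luminal keratins and junction proteins, 3 of 22 were higher and 1 was lower, with a median difference of 0.17. Cdh1, for E-cadherin, had 9.84, 10.11 and 9.85 on the mutant arrays and 9.07, 8.69 and 8.51 on the control arrays, separated groups with a difference of 1.18 (SE 0.17, adjusted p = 0.000403). Ocln, for the tight junction protein occludin (1.41, adjusted p = 0.0214), and Epcam, an epithelial adhesion molecule (0.51, adjusted p = 0.0246), were higher, but their calls ended in 5 and 4 of the 6 fits that left out 1 array (adjusted p = 0.0873 for Ocln without control replicate 2 and 0.147 for Epcam without mutant replicate 2). Krt19, a luminal keratin, went the other way, with 6.37, 7.63 and 5.44 on the mutant arrays and 8.14, 8.87 and 8.39 on the control arrays. Every mutant array lay below every control array and the difference was -1.99 (SE 0.36, adjusted p = 0.00277). The Krt19 call held in the 6 fits without 1 array and ended with the 4 basal groups only and with the 2 compared groups only (adjusted p up to 0.212).

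Genes that distinguish luminal from basal cells were also taken from arrays outside the comparison, by a log2 difference over 2 and an adjusted p under 0.01 between both control luminal groups and control basal GFP-positive cells. Of the 272 luminal-high genes, 37 rose and 2 fell in the mutant GFP-positive arrays, with a median difference of 0.33. The shares are 13.6% and 0.735%, beside 2.29% and 0.928% over all genes. Their median genotype part was 0.40. These genes were chosen for low levels in control basal GFP-positive cells, which the genotype part subtracts, so the choice itself favours a positive value there. Their mean level was 6.47, 6.58 and 6.27 on the mutant arrays and 5.80, 5.87 and 5.85 on the control arrays, against 8.23 and 8.80 in the control luminal groups. The mutant arrays lay above the control arrays without overlap and well below the luminal ones. Of the 263 basal-high genes, 17 were higher (6.46%) and 37 lower (14.1%), with a median of -0.12. Their mean level was 8.41, 8.39 and 8.48 on the mutant arrays and 8.80, 8.41 and 8.40 on the control arrays, which overlapped. The count of luminal-high genes called higher was 22 without mutant replicate 2.

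**Figure D2:**
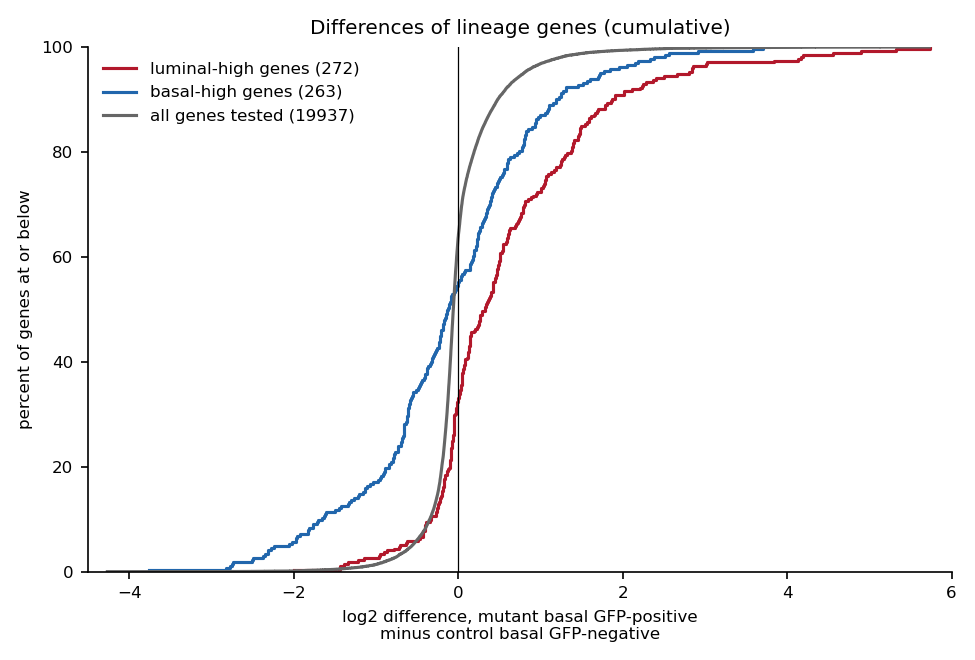
Cumulative share of genes (vertical axis, percent) by log2 difference of mutant basal GFP-positive minus control basal GFP-negative cells (horizontal axis), for 272 luminal-high genes, 263 basal-high genes and all 19937 genes tested. The luminal-high curve lies to the right of the others, with a median of 0.33, and the basal-high curve spreads to both sides of 0, with a median of -0.12.

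Contractile and muscle-type genes of the myoepithelial programme were among the genes that fell. Of 18 measured, 5 were lower and 0 higher, and the median difference was -0.47, against -0.06 over all genes. Lmod1, for leiomodin, which starts actin filaments in smooth muscle, had levels of 5.23, 5.61 and 5.50 on the mutant GFP-positive arrays and 8.07, 8.75 and 7.76 on the control GFP-negative arrays. The groups were separated by more than 2 log2 units, with a difference of -2.75 (SE 0.33, adjusted p = 6.07e-05). Synm, for the intermediate filament protein synemin, had 5.22, 5.85 and 5.73 on the mutant arrays and 7.57, 6.97 and 8.38 on the control arrays, and Mrvi1, for a substrate of cGMP-dependent kinase in smooth muscle, had 5.09, 4.76 and 5.22 on the mutant arrays and 7.62, 6.96 and 6.34 on the control arrays. Neither gene had overlapping groups, and the differences were -2.04 (SE 0.38, adjusted p = 0.0036) for Synm and -1.95 (SE 0.30, adjusted p = 0.0006) for Mrvi1. Both calls ended in the fit of the 2 compared groups only, and that of Synm also with the 4 basal groups only (adjusted p up to 0.099 for Synm and 0.0703 for Mrvi1).

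Tagln, for the actin-binding protein transgelin, had 9.90, 9.21 and 9.88 on the mutant arrays and 11.002, 10.96 and 10.80 on the control arrays, a separated pair with a difference of -1.26 (SE 0.24, adjusted p = 0.00521); its call ended with the 2 compared groups only (adjusted p = 0.0602). The fifth was Myh11, the smooth muscle myosin heavy chain, named because it completes the count; it had 10.77, 10.69 and 11.13 on the mutant arrays and 11.70, 11.74 and 11.88 on the control arrays (-0.91, adjusted p = 0.0457), and its call ended in 5 of the 6 fits without 1 array (adjusted p up to 0.171). Of the 5 contractile calls, that of Lmod1 held under each of the 16 alternatives. Acta2, smooth muscle actin, had 12.08, 12.01 and 12.22 on the mutant arrays and 12.45, 12.40 and 12.40 on the control arrays. All 3 mutant values were below all 3 control values, but the difference of -0.31 did not pass (adjusted p = 0.851), in a fit whose standard error of 0.62 is pooled over all 8 groups. Oxtr, the oxytocin receptor, had a difference of -1.14 (adjusted p = 0.0562), and Cnn1, for calponin, -0.95 (adjusted p = 0.438).

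Basal keratins and attachment genes stood apart from this, with 0 of 22 higher, 1 lower and a median difference of 0.14. The lower gene was Lama1, for a laminin chain of the basement membrane, with 7.75, 7.53 and 8.09 on the mutant arrays and 8.93, 8.59 and 8.50 on the control arrays, separated, and a difference of -0.88 (SE 0.17, adjusted p = 0.00482); its call ended with the 4 basal groups only and with the 2 compared groups only (adjusted p up to 0.115). Its level in control basal GFP-positive cells was 6.93 ± 0.29, lower still. Krt15, a basal keratin, had a difference of 2.19 (adjusted p = 0.126), and the integrins Itga6 and Itgb4 had 0.06 (adjusted p = 0.928) and 0.26 (adjusted p = 0.522).

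The gene with the largest fall was Ankrd1, a muscle ankyrin repeat protein. It had 4.42, 4.32 and 4.78 on the mutant arrays and 8.16, 8.99 and 9.17 on the control arrays, and the difference was -4.26 (SE 0.56, adjusted p = 0.000141). The control basal GFP-positive mean was 5.51 ± 0.37 and the mutant basal GFP-negative mean 8.27 ± 1.88, so the level was low in both GFP-positive groups. Pappa, a protease that cleaves IGF-binding proteins, had 4.07, 4.45 and 4.54 on the mutant arrays and 6.57, 7.56 and 6.96 on the control arrays, a difference of -2.68 (SE 0.35, adjusted p = 0.000142), and it too was low in control basal GFP-positive cells (4.55 ± 0.28). Serpinb11, of the serpin protease inhibitor family, fell by 3.18 (SE 0.75, adjusted p = 0.0227); its call ended in 4 of the 6 fits without 1 array (adjusted p = 0.0949 without mutant replicate 2). With the 4 basal groups only the Serpinb11 call ended too (adjusted p = 0.21). The mutant means of these 3 genes are dim, so the sizes are not exact.

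A further set was low in mutant basal GFP-positive cells and high in the 3 other basal groups. Grik3, for a kainate glutamate receptor subunit, had 5.50, 5.58 and 4.90 on the mutant arrays and 9.90, 8.84 and 8.50 on the control arrays, without overlap, and the difference was -3.75 (SE 0.44, adjusted p = 4.4e-05). Its means in mutant basal GFP-negative and control basal GFP-positive cells were 8.98 ± 1.30 and 9.58 ± 0.03. Scn7a, for a sodium channel of the sodium-sensing type, had 7.85, 8.38 and 7.97 on the mutant arrays and 10.52, 10.57 and 10.64 on the control arrays. The control values were close together and the mutant values more than 2 log2 units lower, a difference of -2.51 (SE 0.20, adjusted p = 4.44e-07), while the other basal groups averaged 10.52 ± 0.63 and 10.64 ± 0.13.

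Cpxm2, for a protein of the carboxypeptidase family, had a difference of -2.82 (SE 0.40, adjusted p = 0.000352) and means of 7.58 ± 1.09 and 7.81 ± 0.54 in mutant basal GFP-negative and control basal GFP-positive cells. A further 4 of the 12 largest falls were in genes of varied kind. Ptprz1, a receptor tyrosine phosphatase, fell by 3.34 (SE 0.40, adjusted p = 5.86e-05), and Spock2, a proteoglycan of the matrix, by 2.74 (SE 0.31, adjusted p = 2.89e-05). Tmem154, a membrane protein, fell by 2.52 (SE 0.48, adjusted p = 0.00491), with control arrays that spread between 5.40 and 8.10, and the glutamine transporter Slc1a5 by 2.50 (SE 0.47, adjusted p = 0.00434). The calls of Tmem154 and Slc1a5 ended in the fit of the 2 compared groups only, and that of Tmem154 also with the 4 basal groups only (adjusted p up to 0.182 and 0.0948). With its probe sets averaged, Tmem154 had a difference of -1.31. The mutant means of Ptprz1 (4.47) and Tmem154 (4.23) are dim, so their sizes are not exact.

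In the Wnt pathway 2 of 25 genes were higher and 5 lower, with a median difference of -0.09. Wif1, a secreted inhibitor that binds Wnt ligands, had 4.46, 5.19 and 5.85 on the mutant arrays and 8.07, 7.74 and 8.01 on the control arrays, fully separated, with a difference of -2.77 (SE 0.35, adjusted p = 0.000103). Nkd1, an intracellular feedback inhibitor of Wnt signalling, had 4.72, 4.74 and 5.01 on the mutant arrays and 7.73, 7.07 and 5.31 on the control arrays and a difference of -1.88 (SE 0.40, adjusted p = 0.0123), lost in 4 of the 6 fits without 1 array (adjusted p = 0.0593 without control replicate 2). With the 4 basal groups only and with the 2 compared groups only the Nkd1 call ended too (adjusted p up to 0.268). Lgr5, given above, was the third lower gene. Lgr6, its relative, and Fzd7, a Wnt receptor, complete the count, with differences of -1.34 (adjusted p = 0.0457) and -1.21 (adjusted p = 0.0189) whose calls ended in 6 and 5 of the 6 fits without 1 array (adjusted p up to 0.197 and 0.0658).

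Sox9, a transcription factor of epithelial progenitors, rose within this list: it had 10.30, 10.43 and 10.14 on the mutant arrays and 9.25, 8.91 and 8.66 on the control arrays, separated groups and a difference of 1.35 (SE 0.15, adjusted p = 2.76e-05). Sfrp1, a secreted Wnt inhibitor that makes up the other higher gene, had a difference of 1.46 (adjusted p = 0.0378), lost in 5 of the 6 fits without 1 array (adjusted p up to 0.168). Axin2, a common read-out of Wnt signalling, had 4.83, 4.77 and 5.005 on the mutant arrays and 5.96, 5.05 and 5.38 on the control arrays. All mutant arrays lay below the control arrays, but the difference of -0.59 did not pass (adjusted p = 0.0873).

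**Figure D3:**
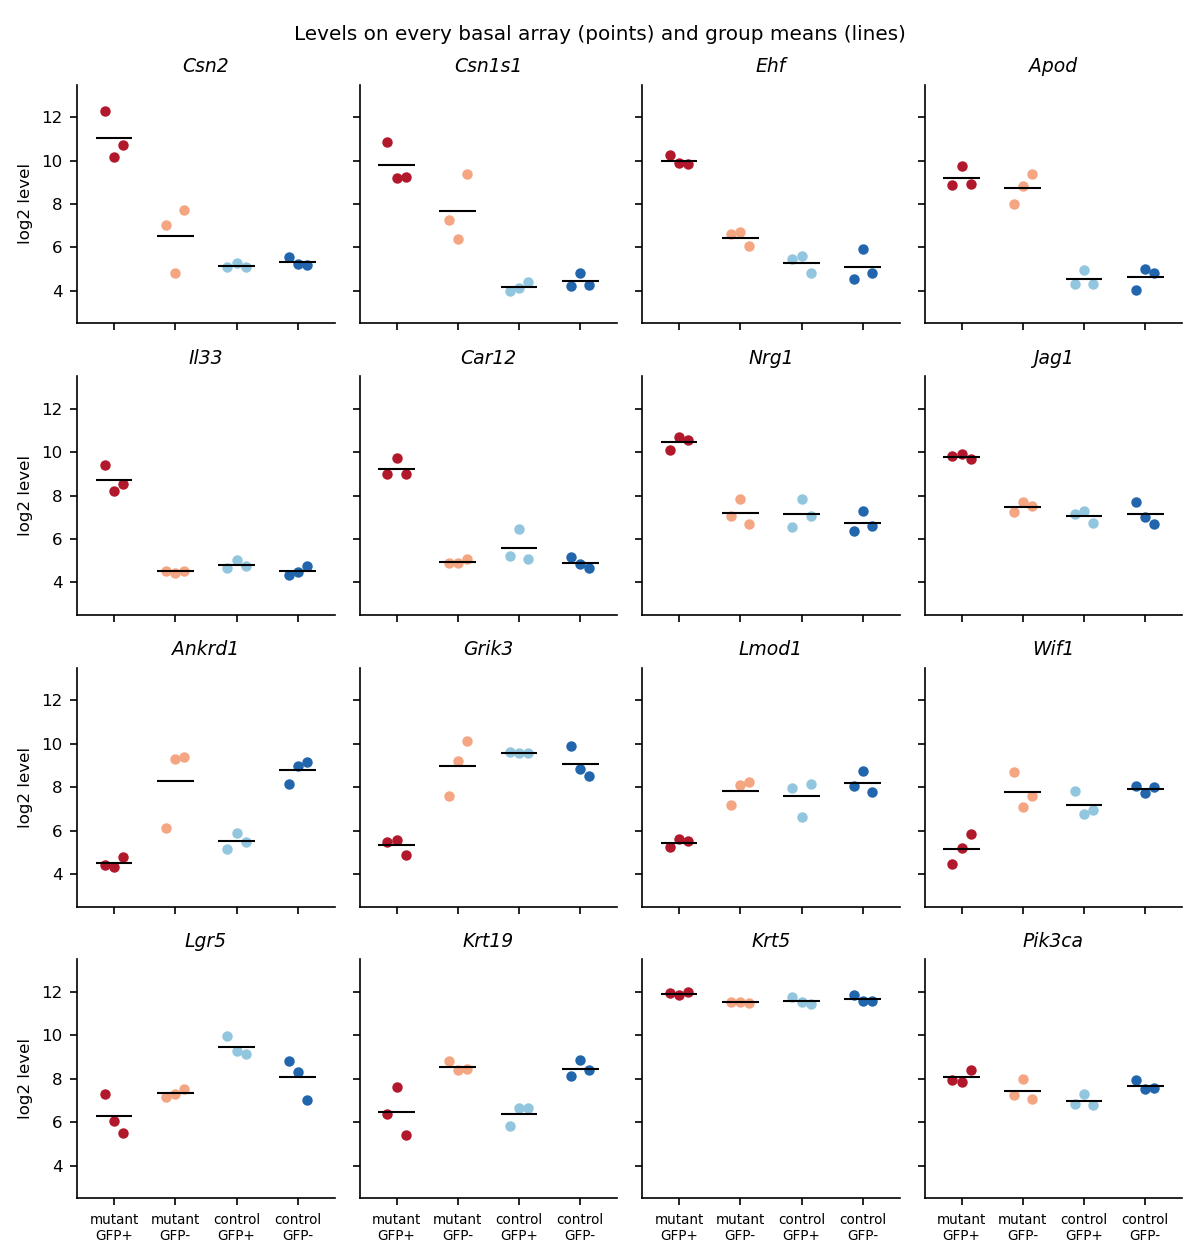
Log2 level (vertical axis, the same scale in every panel) on each of the 12 basal arrays for 16 genes. Columns are mutant GFP-positive, mutant GFP-negative, control GFP-positive and control GFP-negative cells, points are arrays and lines are means of 3 arrays. Apod is high in both mutant groups, Il33 and Car12 in mutant GFP-positive cells, Ankrd1 and Krt19 are low in both GFP-positive groups, and Grik3 is low in mutant GFP-positive cells. Krt5 and Pik3ca did not pass the test.

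Of 21 measured components of the PI3K, AKT and mTOR pathway, 2 were higher and 0 lower, and the median difference was 0.38. Pik3r3, a regulatory subunit of PI3K, had 6.81, 7.48 and 7.41 on the mutant arrays and 4.85, 5.03 and 4.80 on the control arrays. The groups were separated by a wide gap and the difference was 2.34 (SE 0.35, adjusted p = 0.000547). Pik3cb, for the p110-beta catalytic subunit, had 8.56, 8.63 and 8.17 on the mutant arrays and 6.15, 7.34 and 7.69 on the control arrays and a difference of 1.40 (SE 0.33, adjusted p = 0.0256), which ended in 3 of the 6 fits without 1 array (adjusted p = 0.109 without mutant replicate 2). The Pik3cb call also ended with the 4 basal groups only, with the 2 compared groups only and with quantile normalization (adjusted p up to 0.227). Akt1 had a difference of 0.37 (adjusted p = 0.676), and Phlpp1, a phosphatase that acts on AKT, 1.18 (adjusted p = 0.0808).

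FOXO transcription factors are held out of the nucleus by AKT. Of 27 FOXO factors and reported targets, 4 were higher and 3 lower, with a median of 0.13. Sesn3, for sestrin 3, a stress-induced inhibitor of mTOR signalling, had 9.64, 9.12 and 9.36 on the mutant arrays and 6.36, 6.42 and 6.76 on the control arrays, a difference of 2.86 (SE 0.40, adjusted p = 0.00025). Cat, for catalase, had 9.21, 9.36 and 9.23 on the mutant arrays and 7.71, 6.99 and 7.15 on the control arrays and a difference of 1.98 (SE 0.31, adjusted p = 0.000877). Both genes had separated groups, as did Cited2, a transcriptional co-regulator (1.40, SE 0.21, adjusted p = 0.000431), and Klf6, a zinc finger factor (1.11, SE 0.15, adjusted p = 0.000266).

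The 3 lower genes of the list fall outside the rule for named genes and are given to complete the count. Igf1r, the receptor for insulin-like growth factor 1, had 5.06, 5.37 and 4.97 on the mutant arrays and 7.40, 6.63 and 6.53 on the control arrays, without overlap, and a difference of -1.72 (SE 0.31, adjusted p = 0.00305), a call that ended with the 4 basal groups only and with the 2 compared groups only (adjusted p up to 0.0641). Fbxo32, the muscle ubiquitin ligase atrogin-1, had 8.94, 8.81 and 9.32 on the mutant arrays and 10.84, 11.003 and 10.31 on the control arrays and a difference of -1.69 (SE 0.31, adjusted p = 0.0034). Txnip, which binds thioredoxin and limits glucose uptake, fell by 1.17 (SE 0.27, adjusted p = 0.0222), a call that ended in 4 of the 6 fits without 1 array (adjusted p up to 0.0886). Genes of the same list thus passed in opposite directions. Foxo1 itself had a difference of 0.10 (adjusted p = 0.851).

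Ligands and binding proteins of the ERBB and IGF receptors gave 3 higher and 0 lower of 20, with a median of 0.14. Nrg1, for neuregulin 1, a ligand of ERBB3 and ERBB4, had 10.11, 10.69 and 10.56 on the mutant arrays and 6.35, 7.27 and 6.61 on the control arrays. The mutant arrays lay far above the control arrays, and the difference was 3.71 (SE 0.40, adjusted p = 1.87e-05). Igfbp4, an IGF-binding protein that Pappa cleaves, had 8.97, 8.82 and 8.53 on the mutant arrays and 6.84, 6.52 and 7.22 on the control arrays and a difference of 1.91 (SE 0.40, adjusted p = 0.0107), lost without mutant replicate 1 (1.81, adjusted p = 0.053) or control replicate 2. Ereg, for the EGF receptor ligand epiregulin, had 5.56, 7.20 and 4.19 on the mutant arrays and 3.93, 4.08 and 4.01 on the control arrays against a dim control mean (1.64, adjusted p = 0.0382), lost in 5 of these 6 fits (adjusted p = 0.095 without mutant replicate 1), with a difference of 0.87 without mutant replicate 2. The Igfbp4 call also ended with the 4 basal groups only (adjusted p = 0.144). That of Ereg ended there, with the 2 compared groups only and in further fits (adjusted p up to 0.386). The receptors Egfr and Erbb2 had differences of 0.08 (adjusted p = 0.927) and -0.21 (adjusted p = 0.805).

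Genes induced by ERK signalling as feedback gave 3 higher and 1 lower of 18, with a median of 0.17. Spry4, for a Sprouty inhibitor of receptor signalling, had 6.27, 6.13 and 6.33 on the mutant arrays and 5.17, 4.95 and 5.31 on the control arrays, separated, with 1.10 (SE 0.23, adjusted p = 0.00891). The other calls were less stable: Dusp10, for a phosphatase of stress-activated kinases (2.23, adjusted p = 0.0341), Fosl1, an AP-1 subunit (1.54, adjusted p = 0.0374), and the lower gene Etv1, an ETS factor (-1.82, adjusted p = 0.0334), each lost the call in 5 of the 6 fits without 1 array (adjusted p up to 0.163, 0.169 and 0.138). Fosl1 averaged 8.72 ± 0.98 in control basal GFP-positive cells, as high as in mutant basal GFP-positive cells (8.67 ± 0.30).

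In the Notch pathway 2 of 20 genes were higher and 0 lower, a ligand and a receptor. Jag1, for the ligand Jagged-1, had 9.82, 9.90 and 9.68 on the mutant arrays and 7.69, 7.02 and 6.71 on the control arrays. The mutant arrays were close together and the gap to the control arrays was wide, with a difference of 2.66 (SE 0.24, adjusted p = 1.9e-06). Notch1, a receptor, had 8.34, 8.37 and 7.99 on the mutant arrays and 6.54, 6.12 and 5.50 on the control arrays, also separated, with a difference of 2.18 (SE 0.28, adjusted p = 0.000141). The target genes Hes1 (0.13, adjusted p = 0.798) and Hey1 (0.51, adjusted p = 0.652) did not pass, and the median of the list was 0.03.

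In the TGF-beta and BMP pathway 2 of 23 genes were higher and 0 lower, with a median of 0.24, beside 2.29% and 0.928% over all genes. These were the receptors Tgfbr2, for TGF-beta, with 7.12, 6.74 and 6.46 on the mutant arrays and 5.76, 5.84 and 5.65 on the control arrays and a difference of 1.03 (SE 0.20, adjusted p = 0.00635), and Acvr1, for BMPs and activins, with 0.91 (SE 0.18, adjusted p = 0.00776). The arrays of both genes were separated. The Acvr1 call ended without mutant replicate 2 (0.80, adjusted p = 0.0531), and both calls ended with the 2 compared groups only (adjusted p = 0.0726 for Tgfbr2 and 0.0798 for Acvr1).

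Acute-phase proteins and cytokines included several of the largest differences. Saa1, for serum amyloid A1, had 9.26, 9.34 and 6.93 on the mutant arrays and 3.34, 3.37 and 3.46 on the control arrays, a difference of 5.12 (SE 0.91, adjusted p = 0.00276). Saa2, its close relative, had 8.34, 9.71 and 7.11 on the mutant arrays and 3.92, 3.66 and 4.26 on the control arrays and 4.44 (SE 0.86, adjusted p = 0.0057); the 2 genes are similar in sequence, so their probe sets may share signal. In both, the mutant arrays lay far above dim control arrays, with mutant replicate 3 the lowest. Apod, for the lipocalin apolipoprotein D, had 8.88, 9.73 and 8.91 on the mutant arrays and 4.02, 5.01 and 4.83 on the control arrays and a difference of 4.55 (SE 0.34, adjusted p = 1.15e-07). Its control mean of 4.62 is dim, so that size is approximate. Lgals7, for galectin-7, rose by 1.31 (SE 0.33, adjusted p = 0.038), a call that ended in each of the 6 fits without 1 array (adjusted p = 0.118 without mutant replicate 2). These were the 4 higher genes of 19, with 0 lower and a median of 0.33. Lcn2, for lipocalin 2, had a difference of -0.16 (adjusted p = 0.811).

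Of 27 chemokines and cytokines, 6 were higher and 1 lower, with a median of 0.08. Il24, a cytokine of the interleukin-10 family, had 8.65, 10.37 and 7.13 on the mutant arrays and 3.88, 3.88 and 3.97 on the control arrays. Mutant replicate 3 was the lowest of its group and still far above the dim controls, and the difference was 4.81 (SE 0.64, adjusted p = 0.000168); the call ended in the fit of the 2 compared groups only (adjusted p = 0.0607). Il33, an alarmin of the interleukin-1 family, had 9.40, 8.21 and 8.53 on the mutant arrays and 4.32, 4.48 and 4.75 on the control arrays, separated, with 4.19 (SE 0.41, adjusted p = 4.43e-06). Its means in the other basal groups were 4.51 ± 0.06 in mutant GFP-negative and 4.82 ± 0.19 in control GFP-positive cells. The control GFP-negative mean of Il33, 4.52, is dim, so the size is approximate.

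Cxcl12, a chemokine for CXCR4-bearing cells, had 9.63, 9.96 and 9.49 on the mutant arrays and 7.85, 6.94 and 7.30 on the control arrays, a difference of 2.33 (SE 0.25, adjusted p = 1.77e-05), and Cxcl2, a neutrophil chemokine, had 9.47, 10.10 and 7.95 on the mutant arrays and 6.67, 6.12 and 6.19 on the control arrays and 2.85 (SE 0.46, adjusted p = 0.00103). Both had separated groups. The Cxcl2 call ended with the 4 basal groups only and with the 2 compared groups only (adjusted p up to 0.0977). Cxcl1 (1.01, adjusted p = 0.0216), Csf1 (0.98, adjusted p = 0.0388) and the lower gene Cxcl14 (-0.80, adjusted p = 0.0487) complete the count and lost their calls in 4, 4 and 6 of the 6 fits without 1 array (adjusted p up to 0.128, 0.205 and 0.171). Complement genes gave 0 calls among 11 in limma, with 0 higher and 2 lower at an unadjusted p under 0.05, and interferon response genes 0 among 14, with 0 at an unadjusted p under 0.05.

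The largest differences outside the lists were in genes of varied kind. Car12, for a membrane carbonic anhydrase, had 9.003, 9.74 and 8.98 on the mutant arrays and 5.19, 4.86 and 4.66 on the control arrays, and Fndc1, for a protein with fibronectin domains, had 8.74, 9.20 and 7.92 on the mutant arrays and 4.403, 4.38 and 4.43 on the control arrays. The groups were far apart in both, with differences of 4.34 (SE 0.31, adjusted p = 6.88e-08) and 4.21 (SE 0.19, adjusted p = 1.66e-10). In mutant basal GFP-negative and control basal GFP-positive cells Car12 averaged 4.95 ± 0.09 and 5.58 ± 0.76, and Fndc1 4.37 ± 0.08 and 4.52 ± 0.07. The control GFP-negative mean of Fndc1, 4.41, is dim, so its size is approximate.

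S100a4, a calcium-binding protein counted among mesenchymal genes, had 10.24, 9.23 and 9.86 on the mutant arrays and 6.35, 5.13 and 5.25 on the control arrays, a difference of 4.20 (SE 0.82, adjusted p = 0.00614), and Emp3, an epithelial membrane protein, had 9.82, 9.54 and 9.83 on the mutant arrays and 5.05, 6.59 and 5.01 on the control arrays, a difference of 4.18 (SE 0.65, adjusted p = 0.000731). In both genes the control basal GFP-positive arrays spread widely (SD 2.07 for S100a4 and 1.89 for Emp3). S100a4 and Cdh2, for N-cadherin (1.18, adjusted p = 0.00994, lost without mutant replicate 3 at an adjusted p of 0.058), were the 2 higher genes of 16 mesenchymal transition factors, with 0 lower and a median of -0.07. The Cdh2 call also ended with the 4 basal groups only and with the 2 compared groups only (adjusted p up to 0.15), and its control mean of 4.57 is dim. Among 23 matrix proteins and proteases, Col6a1, a collagen VI chain, was higher (1.33, adjusted p = 0.00918) and Col4a2, a collagen IV chain of the basement membrane, lower (-0.96, adjusted p = 0.014). This 1 call each way stands beside 2.29% higher and 0.928% lower over all genes. The Col6a1 call ended in 2 and the Col4a2 call in 3 of the 6 fits without 1 array (adjusted p = 0.0571 and 0.0775 without control replicate 2).

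Metabolic and growth lists gave few calls, beside 2.29% higher and 0.928% lower over all genes, and single calls were not read as results about a list. Slc2a1, the glucose transporter GLUT1, was the 1 higher gene of 15 in glycolysis (1.27, adjusted p = 0.0153), with 0 lower; its call ended in 3 of the 6 fits without 1 array (adjusted p = 0.0841 without control replicate 3). Among 18 amino acid transporters, Slc38a2, a transporter of neutral amino acids, had 11.55, 11.75 and 11.53 on the mutant arrays and 10.77, 10.97 and 10.81 on the control arrays and a difference of 0.76 (SE 0.14, adjusted p = 0.00341), lost with the 4 basal groups only (adjusted p = 0.0601), and Slc1a5, given above, was lower. None of 20 sterol and fatty acid synthesis genes was called in limma, with 2 higher and 0 lower at an unadjusted p under 0.05, and the median of the list was 0.45. Scd1, a fatty acid desaturase, had the largest value, 1.57 (adjusted p = 0.252). Endoplasmic reticulum folding genes gave 0 calls in limma among 16, with 2 higher and 0 lower at an unadjusted p under 0.05.

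None of 32 cell cycle genes was called in limma, with 1 higher and 1 lower at an unadjusted p under 0.05. Their median difference was -0.21. The median genotype part was 0.35 and the median GFP part -0.57, and the parts add up for each gene but not in their medians. The proliferation marker Mki67 had a difference of -0.30 (adjusted p = 0.853), Ccnd1, for cyclin D1, -1.002 (adjusted p = 0.386), and Top2a, for a DNA topoisomerase, -1.08 (adjusted p = 0.464).

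Genes of the immediate early and dissociation stress response gave 3 lower and 0 higher of 21: Junb, an AP-1 subunit (-0.36, adjusted p = 0.0426), Hspa1a, for a heat shock protein (-0.66, adjusted p = 0.0435), and Btg2, an antiproliferative early gene (-0.57, adjusted p = 0.0443). These differences were small, and the calls ended in 5, 6 and 4 of the 6 fits without 1 array (adjusted p up to 0.159, 0.15 and 0.196). The 13 ribosomal protein genes gave 0 calls in limma, with 0 higher and 7 lower at an unadjusted p under 0.05 and a median of -0.14.

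**Figure D4:**
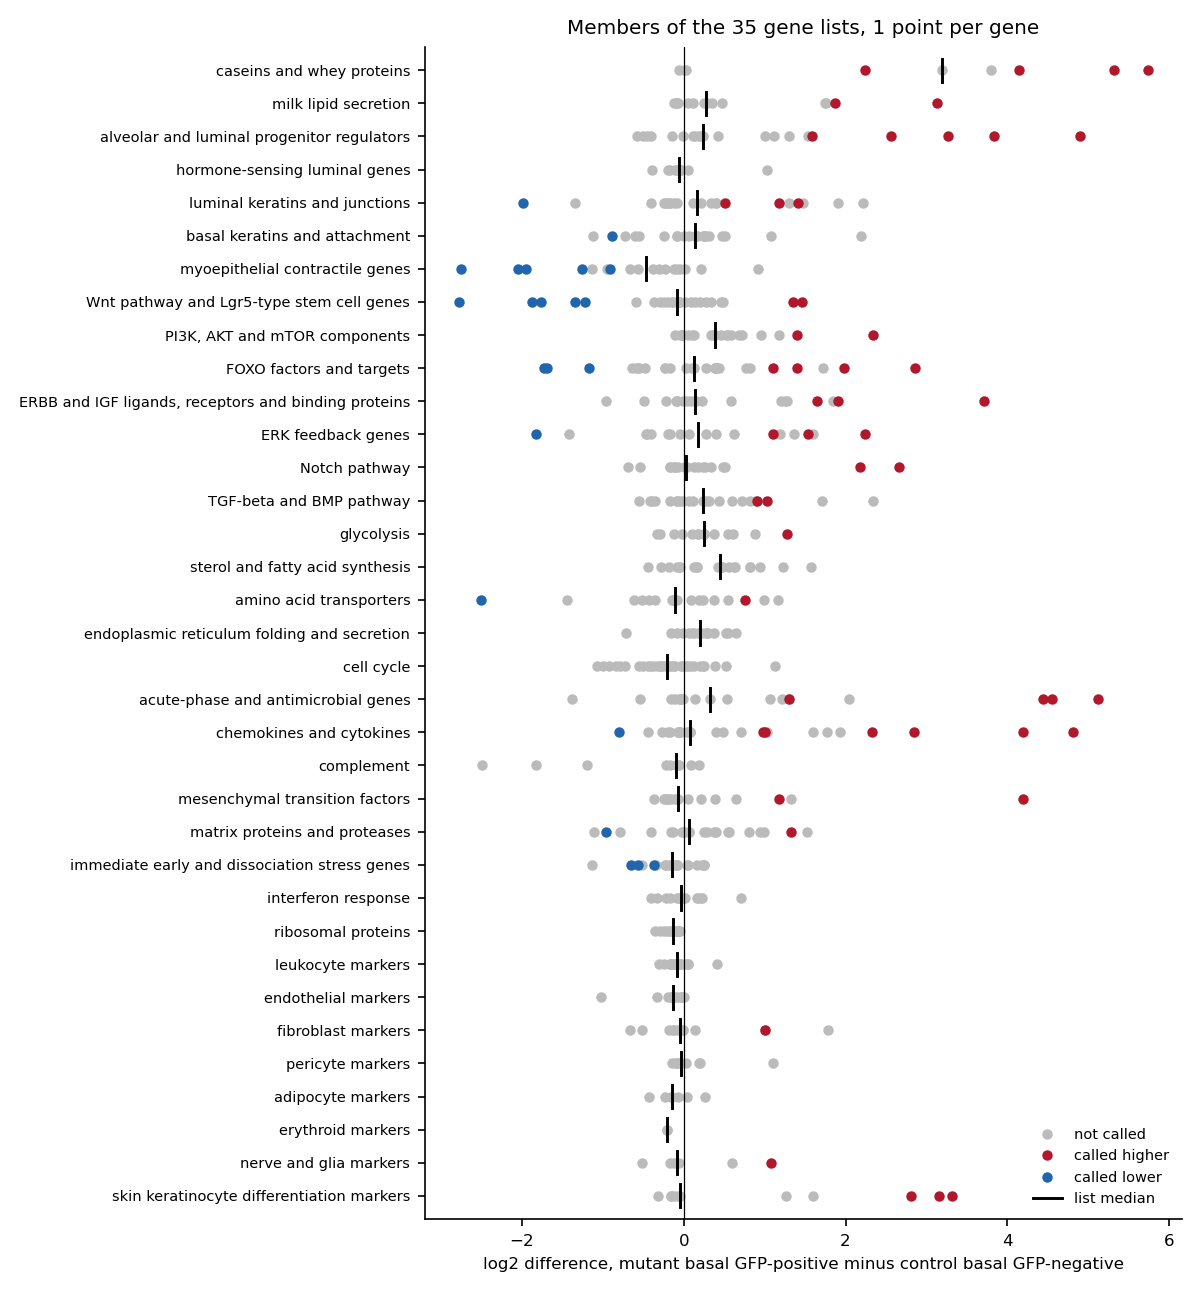
Log2 difference of mutant basal GFP-positive minus control basal GFP-negative cells (horizontal axis) for the measured members of each of 35 gene lists (rows), 1 point per gene. Red points were called higher, blue points lower and grey points were not called, and black bars are list medians. The casein list has the highest median, 3.19, and the contractile list the lowest, -0.47.

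Markers of other cell types were read in the same way. The leukocyte antigen Ptprc, which encodes the CD45 used to exclude leukocytes, had 4.14, 4.09 and 4.18 on the mutant arrays and 4.23, 4.43 and 4.24 on the control arrays, dim in both groups (-0.16, adjusted p = 0.345), and Cd24a, for CD24, had a difference of 0.21 (adjusted p = 0.656). Of 18 leukocyte markers 0 were called in limma and 17 were dim, and of 12 endothelial markers 0 were called and 11 were dim, with 0 higher and 1 lower at an unadjusted p under 0.05 in either list. Pericyte, adipocyte and erythroid markers gave 0 calls in limma among 9, 7 and 2, with 2, 0 and 0 higher and 0, 1 and 0 lower at an unadjusted p under 0.05.

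Of 12 fibroblast markers 1 was higher, Col1a2, a collagen I chain (1.01, SE 0.15, adjusted p = 0.000359), with 0 lower, a median difference of -0.04 and 4 of the 12 differences above 0; the Col1a2 call ended with the 2 compared groups only (adjusted p = 0.0521). The summed log2 level of the list ran from 63.8 to 66.6 on the mutant arrays and from 60.9 to 64.2 on the control arrays. Of 7 nerve and glia markers Ncam1, an adhesion molecule, was higher (1.08, SE 0.09, adjusted p = 1.05e-06), from dim control levels, with 0 lower, a median of -0.09, 2 of the 7 differences above 0 and summed levels of 35.2 to 36.6 on the mutant and 34.7 to 35.1 on the control arrays. The part of such cells in the results was not tested.

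Of 11 skin keratinocyte markers 3 were higher and 0 lower, while the median difference was -0.05 and 5 of the 11 differences were above 0. Dsg3, for a desmosomal cadherin, had 7.14, 6.74 and 6.02 on the mutant arrays and 3.79, 3.79 and 3.89 on the control arrays, separated, with 2.81 (SE 0.26, adjusted p = 3e-06), and its partner Dsc3 had 7.53, 7.64 and 7.22 on the mutant arrays and 3.94, 4.69 and 3.81 on the control arrays, also separated, with 3.32 (SE 0.71, adjusted p = 0.0113). The Dsc3 call ended with the 4 basal groups only (adjusted p = 0.16), where control basal GFP-positive cells averaged 5.32 ± 2.47 and 1 of their arrays, at 8.17, was above every mutant GFP-positive array. Krt16, a keratin of activated epidermis, had 8.46, 8.54 and 7.06 on the mutant arrays and 4.30, 4.80 and 5.49 on the control arrays and a difference of 3.16 (SE 0.79, adjusted p = 0.0329), lost in 4 of the 6 fits without 1 array (adjusted p = 0.135 without mutant replicate 2); it averaged 8.18 ± 2.03 in control basal GFP-positive cells. The summed level of the 11 genes ran from 58.7 to 64.4 on the mutant arrays and from 48.7 to 52.2 on the control arrays, while Krt6b stood at -0.07 (adjusted p = 0.784) and was dim. The control means of Dsg3 and Dsc3 are dim, so their sizes are approximate. Whether skin cells had a part in these values was not tested.

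The 4 basal groups show how each difference divides. Over all genes, 1107 were called in the genotype part, 5.55% of those tested, 498 higher and 609 lower, and 513 in the GFP part, 2.57%, 293 higher and 220 lower. These counts and their direction depended on scaling and on the arrays and genes in the fit. With the arrays centred on their medians, 687 genes were called in the genotype part, of which 561 were higher, and with quantile normalization 516, of which 273 were higher. With the 4 basal groups only there were 163, of which 132 were higher, and with dim genes left out 501, of which 420 were higher. The genotype count also ranged from 527 to 1844 when 1 array was left out, the extremes coming without mutant replicate 2 and control replicate 1. The share of higher calls in the GFP part was 57.1%, and 44.5% after centring.

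Of the 12 genes with the largest positive differences, 10 were called in the genotype part and 9 in the GFP part, of which 8 and 6 remained in the fit of the 4 basal groups only. Apod divided into a genotype part of 4.37 and a GFP part of 0.18, and its mean in mutant basal GFP-negative cells, 8.73 ± 0.69, was close to that of the GFP-positive cells. Csn1s1 divided into 4.42 and 0.90, Wfdc18 into 4.26 and -0.13, and Csn3 into 3.26 and -1.01. Wfdc18 averaged 11.80 and 10.18 in mutant GFP-positive and GFP-negative cells, and 5.79 and 7.66 in the control ones. Csn3 averaged 10.98 and 9.61 in mutant and 5.35 and 8.73 in control cells, in the same order. In both genes the GFP difference of the means thus had opposite signs in mutant and control cells, and the 2 parts average over this. For Wfdc18 the control arrays of the GFP states overlapped and spread widely (SD 1.65 for GFP-positive and 2.05 for GFP-negative), while those of Csn3 were separated. The GFP difference within each genotype was not tested. Among the caseins the GFP part was called for Csn2 (2.19, adjusted p = 0.00902, and 0.0953 with the 4 basal groups only), whose mean in mutant basal GFP-negative cells was 6.51 ± 1.52.

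Genes that were high in mutant basal GFP-positive cells and near their control GFP-negative level in the other basal groups have by construction parts of similar size. Luminal cells do not enter the parts. Car12 had a genotype part of 1.85 and a GFP part of 2.48, Fndc1 2.03 and 2.18, Il33 1.94 and 2.25, and Nrg1 1.88 and 1.83. The same held for Jag1 (1.55 and 1.11) and Dsg3 (1.21 and 1.61). Tspan8 differed from these, with -0.10 and 2.66, since control basal GFP-positive cells were also high (9.72 ± 0.43).

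Of the 12 genes with the largest negative differences, 8 were called in the genotype part and 11 in the GFP part, of which 2 and 4 remained in the fit of the 4 basal groups only. Ankrd1 had a genotype part of -0.75 (adjusted p = 0.23) and a GFP part of -3.52 (adjusted p = 4.59e-05), Pappa 0.10 and -2.78, and Serpinb11 -0.29 and -2.89. The contractile genes Synm (-0.09 and -1.95) and Mrvi1 (-0.0005 and -1.95) and the keratin Krt19 (0.09 and -2.08) also lay almost wholly in the GFP part. Lgr5 had the reverse division, with -1.95 in the genotype part and 0.18 in the GFP part, but its GFP difference had opposite signs in the genotypes. It averaged 9.47 in GFP-positive and 8.07 in GFP-negative control cells, with separated arrays. In mutant cells it averaged 6.30 and 7.34, in the same order, with overlapping arrays. The small GFP part of Lgr5 averages over these directions and does not mean that Lgr5 was alike in both GFP states. GFP reports Lgr5 in control glands and Lgr5 or the transgene in mutant glands, so the GFP part averages over unlike gates.

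**Figure D5:**
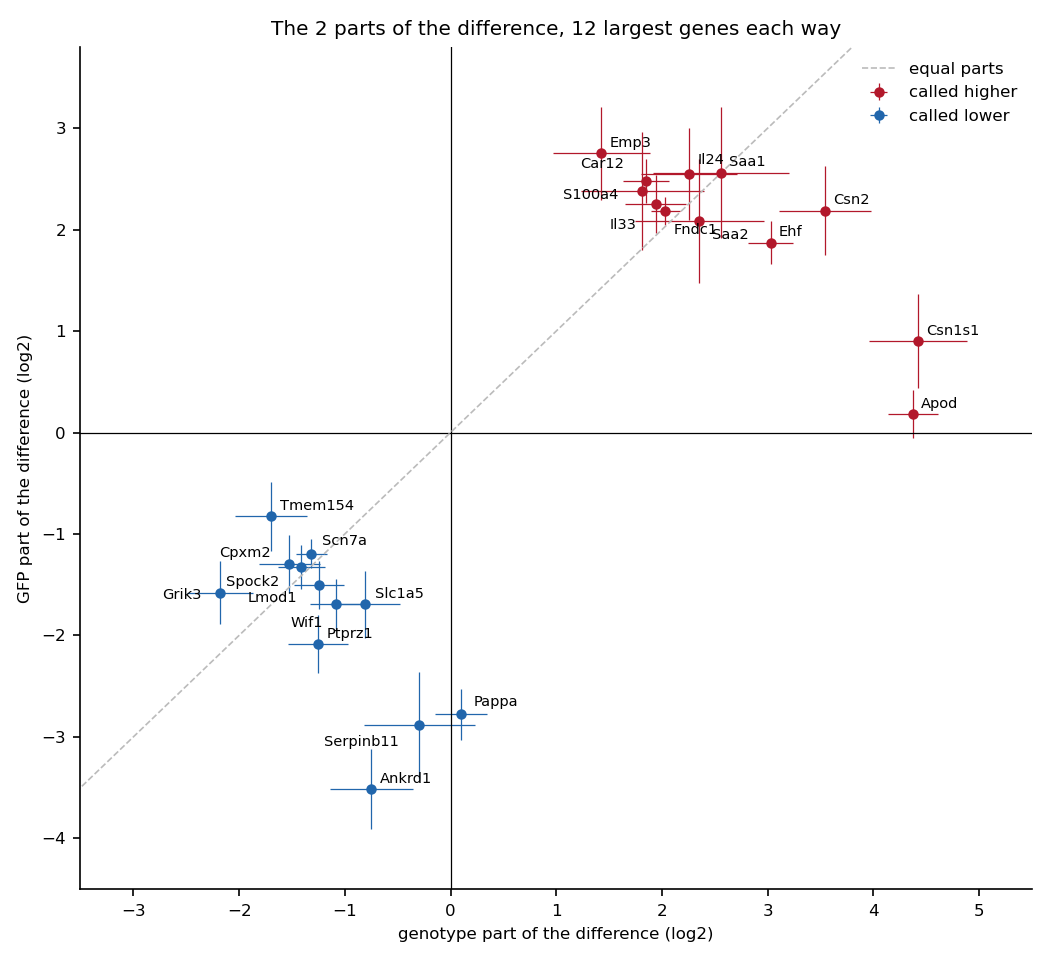
Genotype part (horizontal axis, log2) and GFP part (vertical axis, log2) of the difference for the 12 genes with the largest difference each way, with standard errors as bars. Red genes were called higher and blue genes lower, and the dashed line marks equal parts. Apod and Csn1s1 lie near the genotype axis at 4.37 and 4.42, Ankrd1, Pappa and Serpinb11 near the GFP axis, and most others along the line.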

How the data were processed

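RNA of sorted mouse mammary cells was amplified and hybridised to Affymetrix whole-transcript arrays, 1 per sample. The deposited values are log2 levels per probe set, 1 column per array; the submitters' processing notes name affy, with no version, and the background correction, normalization and summarization by the authors are not given in the sources used here. The scale was read from the values, which ran from 2.59 to 13.5. Of 34760 probe sets, 21640 had 1 symbol, 1321 several and 11799 none in the platform annotation, and those with several or none were left out. Of the 19937 genes, 954 had several probe sets and were read from the brightest by mean over the 24 arrays. By Entrez identifier 19855 genes matched RefSeq GRCm38.p6, with 0 symbols changed.

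A single limma fit (3.58.1, R 4.3.3) of all 24 arrays held 1 mean per group for the 8 groups of 3, which left 16 residual degrees of freedom. Tests were two-sided, with Benjamini-Hochberg adjustment over all 19937 genes and calls at an adjusted p under 0.05. Errors of differences are standard errors (SE) of that fit, pooled over the 8 groups, and errors of levels are standard deviations (SD) of 3 arrays. Replicates are pools from separate sortings, and their number limits the precision. The code was tested on simulated data.

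The members and the 35 gene lists were chosen with earlier results of these data known, and some genes stand in several lists. Named genes are the 12 with the largest difference each way among calls with separated arrays (without predicted genes, receptors of smell and small RNAs), up to 4 called members per list with the smallest p, and 14 fixed marker genes, of which Ly6a could not be read. Genes outside this rule were named after their values were seen. Same-numbered arrays of the compared groups deviated from their group means with correlations of 0.0238, 0.00375 and 0.00178 across genes, so the numbers were not taken as pairs. Whether GFP-positive and GFP-negative arrays of the same genotype share a pool or sorting was not checked. The genotype and GFP parts treat all arrays as independent. Alternatives were other sample sets, scalings, filters and moderation, a replicate block and leaving out each compared array.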

Additional observations from a re-analysis of the deposited data

How the results depend on the processing

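Of the 76 called genes named by the rule, 37 were called under each of 16 alternatives they entered, 24 lost the call in at least 1 fit that left out an array and 15 in other fits alone. Of these 76, 0 changed direction. All of the 24 but Id2 also lost the call with the 4 basal groups only, with the 2 compared groups only or with both. With the 4 basal groups only, 317 genes were called (250 higher and 67 lower; 192 and 51 by 2-fold or more), with 163 in the genotype part, 166 in the GFP part and 18 luminal-high genes called higher. With the 2 compared groups only, 296 were called (227 and 69; 172 and 45), with 22 luminal-high genes higher and 19 basal-high genes lower. These fits have 8 and 4 residual degrees of freedom. The genotype part gave 516 calls with quantile normalization, 687 with the arrays centred on their medians and 501 with dim genes left out, and array weights gave 288 genes called lower; the cause was not tested. Leaving out 1 array gave 409 to 632 calls, 311 to 417 higher (236 to 319 by 2-fold or more) and 95 to 215 lower (65 to 108), 527 to 1844 in the genotype part, 359 to 480 in the GFP part, 22 to 34 luminal-high genes higher and 25 to 31 basal-high genes lower. A replicate block gave 687 calls, 1045 in the genotype part and 512 in the GFP part. Correlations of deviations between arrays of the compared groups all lay between -0.0175 and 0.0238. The highest was that of the arrays numbered 1, while mutant replicate 2 correlated best with control replicate 3 (0.0142).

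The Krt14 difference, not called, was 0.0023 with quantile normalization, 0.024 with centring and 0.0086 with array weights, and ran from -0.0596 to 0.048 when 1 array was left out (0.0049 and 0.048 without mutant replicate 1 or 3, 0.023 and 0.024 without control replicate 1 or 3). The Krt18 difference ran from -0.0069 without mutant replicate 2 to 0.91 without mutant replicate 3. The median difference of all genes stayed between -0.07 and 0.02. The medians of the interferon and pericyte lists turned from -0.03 and -0.04 to 0.02 and 0.02 with quantile normalization. The mutant GFP-positive arrays had higher array weights (1.25 to 1.71) than the control GFP-negative arrays (0.60 to 1.05). The control basal GFP-positive arrays, on which the genotype and GFP parts also rest, had low weights (0.42 to 0.70). The part of these weights in the calls was not tested. Levels under 4.66 have no reliable size, so differences against them are not exact.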

Other observations

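Further gene groups were gathered after the values were seen and are given as descriptions. Of 20 measured prostaglandin and lipoxygenase genes, 6 were higher in mutant basal GFP-positive than in control basal GFP-negative cells and 0 lower, with a median difference of -0.01. Ptgs2, for cyclooxygenase-2, had 11.66, 11.56 and 11.60 on the mutant arrays and 8.50, 8.41 and 6.43 on the control arrays. The mutant arrays were close together and the control arrays spread, without overlap, and the difference was 3.83 (SE 0.72, adjusted p = 0.00434). Alox12e, an epidermal lipoxygenase of the mouse, had 8.42, 8.69 and 8.01 on the mutant arrays and 4.63, 4.79 and 4.83 on the control arrays and a difference of 3.62 (SE 0.17, adjusted p = 1.66e-10), with means of 4.70 ± 0.10 in mutant GFP-negative and 5.06 ± 0.05 in control GFP-positive cells. Ptges, for a prostaglandin E synthase, had a difference of 2.01 (SE 0.41, adjusted p = 0.0085), and Ptger4, a prostaglandin E receptor, of 1.58 (SE 0.25, adjusted p = 0.000835); the Ptges call ended without mutant replicate 2 (adjusted p = 0.0621), with the 4 basal groups only and with the 2 compared groups only, and the Ptgs2 call in the fit of the 4 basal groups only (adjusted p = 0.0847). Hpgd and Alox15 make up the count and lost their calls in 4 and 5 of the 6 fits without 1 array (adjusted p up to 0.119 and 0.154).

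Of 17 antioxidant genes 4 were higher and 0 lower, with a median of 0.27. Hmox1, for heme oxygenase 1, had 11.59, 11.95 and 11.49 on the mutant arrays and 8.13, 9.39 and 8.48 on the control arrays, separated groups and a difference of 3.01 (SE 0.41, adjusted p = 0.000224), and Gstk1, a glutathione transferase, had 7.91, 8.55 and 7.77 on the mutant arrays and 6.20, 5.45 and 4.80 on the control arrays and 2.59 (SE 0.50, adjusted p = 0.0057), lost with the 2 compared groups only (adjusted p = 0.0536). Osgin1 (1.81, adjusted p = 0.0101) and Srxn1, for sulfiredoxin (1.43, adjusted p = 0.0267), lost their calls in 2 and 5 of the 6 fits without 1 array (adjusted p up to 0.055 and 0.106). Among 21 YAP and TEAD genes, Ankrd1 was the 1 called, lower, with a median of 0.04.

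Guidance ligands and receptors gave 10 higher and 1 lower of 47, with a median of 0.27. The receptor Plxna2, a plexin, had 7.17, 6.06 and 6.68 on the mutant arrays and 4.22, 4.30 and 4.34 on the control arrays and a difference of 2.35 (SE 0.19, adjusted p = 3.28e-07), and the secreted glycoprotein Reln, reelin, had 7.83, 7.10 and 7.91 on the mutant arrays and 4.72, 6.09 and 4.70 on the control arrays and 2.45 (SE 0.37, adjusted p = 0.000594), a call lost with the 2 compared groups only (adjusted p = 0.0826). The ephrin ligands Efnb2 (2.44, SE 0.45, adjusted p = 0.00354) and Efna5 (2.601, SE 0.55, adjusted p = 0.0102) and the ephrin receptor Epha2 (1.83, SE 0.28, adjusted p = 0.000705) were higher, each with separated arrays, and lost their calls in the fit of the 2 compared groups only, Efnb2 and Efna5 also with the 4 basal groups only (adjusted p up to 0.0888, 0.215 and 0.0556). Of 27 cytoskeletal genes near muscle contraction, 6 were lower and 2 higher, with a median of -0.15. Nexn, for the actin-binding protein nexilin, had 6.21, 6.13 and 5.92 on the mutant arrays and 8.11, 8.16 and 8.92 on the control arrays and a difference of -2.31 (SE 0.22, adjusted p = 3.06e-06), and Jph2, for a junctophilin, fell by 1.88 (SE 0.37, adjusted p = 0.00618), a call lost with the 4 basal groups only and with the 2 compared groups only (adjusted p up to 0.112), while Flnc, for filamin C, rose: it had 9.26, 9.22 and 8.96 on the mutant arrays and 7.38, 7.14 and 7.11 on the control arrays and a difference of 1.93 (SE 0.40, adjusted p = 0.0083).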
